A study of Mus musculus with 12 samples.

Results

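The genes described here encode the ASXL and BAP1 deubiquitinase complex and its partners: Asxl1, Asxl2, Bap1, Foxk1, Foxk2, Hcfc1, Ogt, Mbd5 and Mbd6. The 9 genes were taken from 21627 protein-coding genes by name, and every ATAC-seq peak overlapping a gene's span or the 50 kb on either side was assigned to it. Peaks of all libraries that overlapped by at least 1 bp were merged, which gave 93 regions in these windows of 56682 in the genome, and 33 to 56 peaks per library. ATAC-seq marks open chromatin by the insertion of a transposase, and the data were 12 lists of broad peaks, 1 per library. The cells were HoxB8 cells, mouse bone marrow progenitors immortalised with Hoxb8, kept in 0.6 µM estrogen and 2% conditioned medium containing stem cell factor, and all were collected 48 h after estrogen was removed. The study asked how truncation of Asxl1 and the receptor mutant CSF3R T618I act alone and together.

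There were 4 groups of 3 libraries. The sgB2/T618I cells carried a guide against Asxl1, called B2, and the vector pMICH-CSF3R-T618I, which overexpresses the mutant receptor. The sgB2/Empty cells carried the same guide with the vector pMICH-Empty, the sgNT/T618I cells a non-targeting guide with the receptor vector, and the sgNT/Empty cells the non-targeting guide with the empty vector. All are immortalised HoxB8 cells. Peak lists cannot show whether Asxl1 was edited or whether the groups came from 1 line. Whether the libraries of a group are separate cultures is not in the labels, so the p-values measure only the spread between these libraries, which may be technical.

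BAP1 is a deubiquitinase that works only with an ASXL protein bound to it, and together they take ubiquitin off histone H2A, the mark that Polycomb repressive complex 1 places. FOXK1 and FOXK2 are forkhead factors that bring BAP1 to DNA, HCFC1 is a scaffold of chromatin complexes, and OGT adds the sugar O-GlcNAc to proteins and cleaves HCFC1. MBD5 and MBD6 are methyl-CpG-binding-domain proteins that bind the complex. Truncating mutations of ASXL1 are common in human myeloid neoplasms.

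Promoter sequences, 250 bases before to 50 after the annotated start, were taken from RefSeq (GRCm38.p6) for 8 of the 9 genes, which had 11 promoters. They are shown for the gene that was targeted, its paralogue, the catalytic subunit and the scaffold. Each of these lies in a region that was open in all 12 libraries, as does a promoter of Foxk2, Ogt, Mbd5 and Mbd6. Capitals mark matches, on either strand, to the ETS-factor word CCGGAAG or the YY1 word AAGATGG. No matches overlapped. The windows are chr2:153345580-153345879 on the plus strand for Asxl1, chr12:3426607-3426906 on the plus strand for Asxl2, chr14:31251239-31251538 on the plus strand for Bap1 and chrX:73966308-73966607 on the minus strand for Hcfc1.
Asxl1: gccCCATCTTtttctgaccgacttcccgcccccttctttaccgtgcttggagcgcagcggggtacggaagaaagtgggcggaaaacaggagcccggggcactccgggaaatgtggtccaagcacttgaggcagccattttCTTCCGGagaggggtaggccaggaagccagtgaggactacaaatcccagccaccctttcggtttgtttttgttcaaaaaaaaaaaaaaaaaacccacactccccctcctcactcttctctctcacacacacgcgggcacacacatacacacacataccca
Asxl2: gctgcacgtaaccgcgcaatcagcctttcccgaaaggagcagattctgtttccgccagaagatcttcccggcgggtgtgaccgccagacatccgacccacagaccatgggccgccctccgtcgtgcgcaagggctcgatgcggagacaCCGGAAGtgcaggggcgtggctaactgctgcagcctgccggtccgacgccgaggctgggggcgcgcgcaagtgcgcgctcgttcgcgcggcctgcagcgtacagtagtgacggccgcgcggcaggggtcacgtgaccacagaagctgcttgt
Bap1: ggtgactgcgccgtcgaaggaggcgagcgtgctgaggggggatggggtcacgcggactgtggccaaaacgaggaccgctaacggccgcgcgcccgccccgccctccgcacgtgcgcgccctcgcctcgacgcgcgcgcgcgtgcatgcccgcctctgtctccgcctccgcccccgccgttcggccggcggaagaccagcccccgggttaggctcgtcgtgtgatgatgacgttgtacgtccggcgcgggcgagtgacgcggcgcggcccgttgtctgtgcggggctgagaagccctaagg
Hcfc1: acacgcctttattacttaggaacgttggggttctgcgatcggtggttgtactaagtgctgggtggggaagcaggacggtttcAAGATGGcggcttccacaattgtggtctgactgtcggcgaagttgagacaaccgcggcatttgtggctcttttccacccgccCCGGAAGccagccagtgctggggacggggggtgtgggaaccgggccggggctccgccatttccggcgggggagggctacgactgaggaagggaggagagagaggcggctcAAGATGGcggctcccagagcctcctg

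The ETS word was in 4 of the 11 promoters, 1 each of Asxl1, Asxl2, Hcfc1 and Mbd5, and in 8.86% of the 32851 promoters in the table. The YY1 word was in 2 of the 11, the promoters of Asxl1 and Hcfc1, and in 6.34% of all promoters. Neither the AP-1 word TGACTCA, the forkhead word TGTTTAC nor the TATA box word TATAAA was found in these 11 promoters, against 5.20%, 3.65% and 13.6% of all promoters. CpG dinucleotides were most frequent at Foxk2, with 59 in 300 bases, and Bap1, with 50. Asxl1 had 13 and the median promoter of the table had 7. These matches describe the letters of the windows only.

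The starts of all 9 genes were open in every library. A peak's strength is given as the percentile of the authors' deposited −log10 p within its own list, where 100 is the strongest, because that value moves with sequencing depth. The median over the 12 libraries was 94.0 at Bap1, 92.5 at Mbd5, 89.5 at Asxl2, 89.1 at Asxl1, 84.6 at Mbd6, 81.9 at Ogt, 67.8 at Hcfc1, 64.2 at Foxk2 and 51.1 at Foxk1. Within every library the Bap1 start stood above the Mbd6 start. The start regions of Bap1 and Asxl1 ran from 89.4 to 97.8 and from 81.4 to 94.3 and were not separated. Asxl1 stood higher in some libraries, such as sgNT/T618I replicate 2 (93.1 against 89.9). The Foxk1 start ran from 30.0 to 68.9, below every library's value at the Asxl1 start. The start regions of Bap1, Mbd5, Asxl2 and Mbd6 also cover the starts of the neighbours Phf7, Orc4, 1110002L01Rik and Ddit3, and openness there cannot be divided between the genes. Ranked by the deposited fold over background instead, the medians for Hcfc1 and Mbd6 were 33.4 and 25.0, and ranked by width 99.1 and 99.9, so these starts held wide rather than tall peaks.

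Of the 93 regions, 28 (30.1%) were in all 12 lists and 27 (29.0%) in only 1, against 23.6% and 34.5% of all regions. The median percentile was 75.2 for regions in all lists, 19.0 for those in 2 to 11 and 8.35 for those in 1, so most of what came and went lay near the bottom of the lists. Hcfc1 had 5 of its 10 regions in all 12 lists, and Asxl1 had 2 of 15.

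To compare groups, the length covered by peaks in each window was scaled to the mean total covered length of the 12 lists, and log2 of that length plus 500 bp was fitted with limma for the 15282 genes that averaged at least 500 bp. All 9 genes were among them. The lists differed in length, with 18484 to 32975 peaks covering 9.23 to 17.9 Mb. The shortest were sgB2/Empty replicate 1, with 9.46 Mb, and sgNT/Empty replicate 1, with 9.23 Mb. The windows of all 8 myeloid marker genes held peaks in every library, while that of Bcl11b, a T-cell factor, was at 0 in 11 of 12. Libraries with sgB2 had 8.75 to 10.1% of their covered length on chromosome 1 and 1.75 to 1.87% on chromosome X, against 6.40 to 6.86% and 2.11 to 2.28% in libraries with sgNT. This difference followed the guide in every library, so the guide and whatever goes with the difference cannot be told apart here. Its cause was not tested. In bulk libraries such as these, fewer open cells and less opening per cell cannot be told apart.

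**Figure D1:**
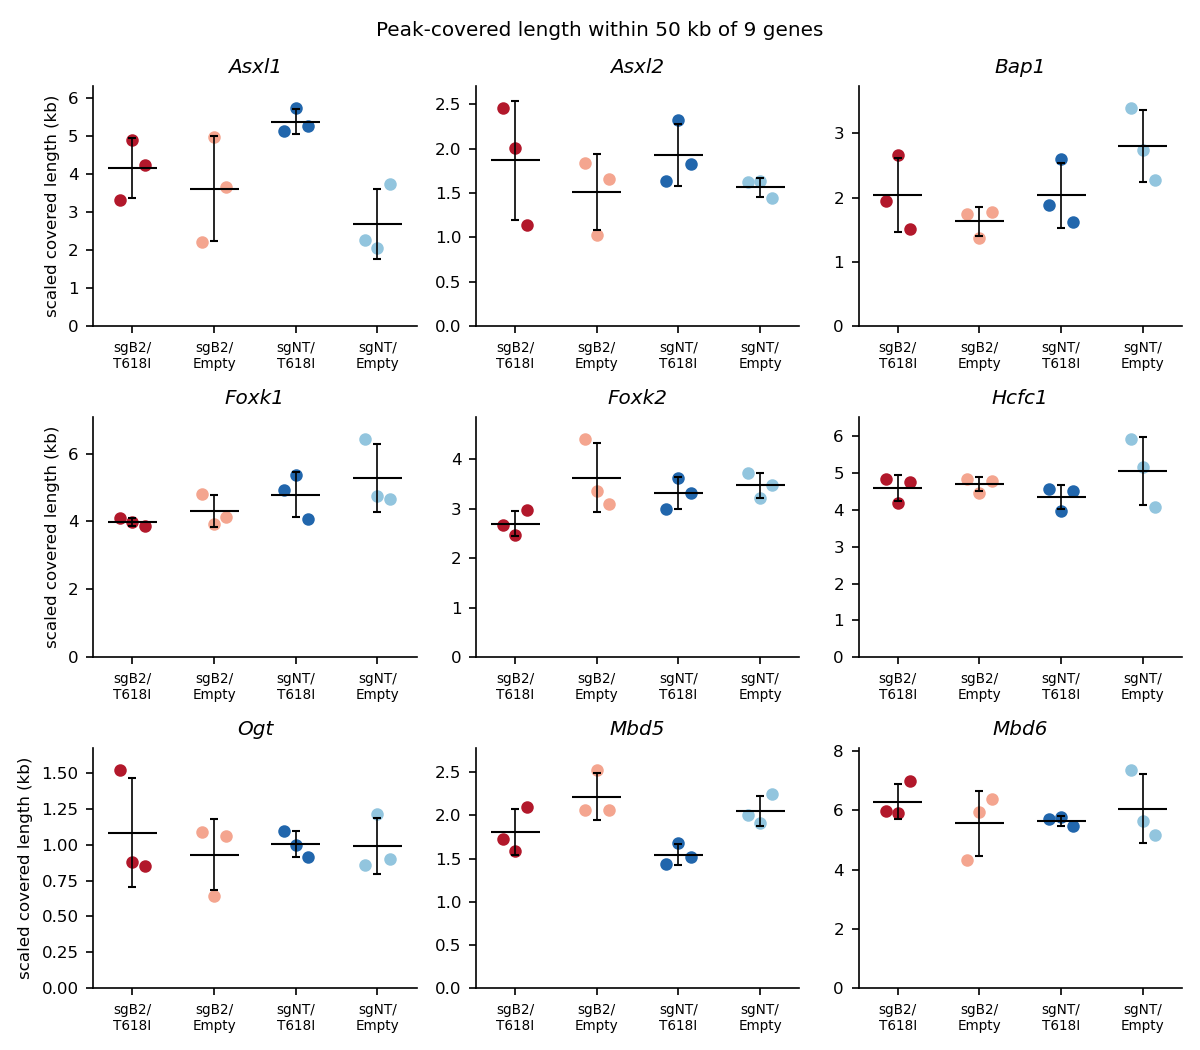
Peak-covered length (kb, scaled to equal list totals) within 50 kb of each of the 9 genes, by group; points are libraries, lines are means and bars are SD (n = 3). The sgNT/T618I libraries of Asxl1 sit between 5.13 and 5.74 kb, above the 3 sgNT/Empty libraries, while most other panels overlap.

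With T618I, the window of Asxl1 was more widely open, and it was the only gene of the 9 that passed the test. The covered length was 3.33, 4.90 and 4.23 kb in sgB2/T618I libraries and 2.23, 4.98 and 3.66 kb in sgB2/Empty libraries. It was 5.13, 5.74 and 5.27 kb in sgNT/T618I libraries, against 2.28, 2.06 and 3.75 kb in sgNT/Empty libraries. The groups overlapped under sgB2 and did not under sgNT. In sgNT cells the 3 T618I and 3 Empty values did not overlap for 3 of the 9 genes, Asxl1, Asxl2 and Mbd5, nor for 20.7% of all genes. Over both guides, T618I libraries averaged 4.77 ± 0.86 kb and Empty libraries 3.16 ± 1.16 kb (SD, n = 6 each), a log2 change of 0.57 ± 0.16 (SE), and limma's Benjamini-Hochberg adjusted p was 0.0393. Of all genes tested, 6.47% passed in this comparison, 4.05% upward, so 1 of 9 is near that background. The 6 T618I and 6 Empty values overlapped for all 9 genes, where 3.15% of all genes did not overlap. An unadjusted p below 0.05 was found for 3 of the 9 genes and for 22.6% of all genes. The median change of the 9 genes was -0.07, beside -0.05 over all genes tested. The adjusted p was above 0.05 when any of 9 libraries was left out, namely replicate 2 or 3 of sgB2/T618I, 1 or 3 of sgB2/Empty, 1, 2 or 3 of sgNT/T618I and 1 or 2 of sgNT/Empty (log2 change 0.43 to 0.58, lowest for sgB2/Empty replicate 1, adjusted p from 0.0537 to 0.1002).

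Split by guide, the Asxl1 change with T618I was 0.92 ± 0.22 (SE) on the log2 scale in sgNT cells (limma adjusted p = 0.0489) and 0.22 ± 0.22 in sgB2 cells (limma adjusted p = 0.665). In sgNT cells 1.49% of genes tested passed, and in sgB2 cells 1.6%. None of the 9 genes passed in sgB2 cells, and 1 had an unadjusted p below 0.05, as did 14.7% of all genes. The difference between the guides was itself not past the threshold: the interaction was -0.70 ± 0.31, with an unadjusted p of 0.0395 and an adjusted p of 0.999 in limma. In that test 0 of the 9 genes and 0.00654% of all genes passed, and 2 of the 9 had an unadjusted p below 0.05, as did 4.91% of all genes. The sgNT call was also lost with any of 9 libraries left out, 3 of sgB2/T618I, sgB2/Empty replicate 3, 3 of sgNT/T618I and sgNT/Empty replicates 1 and 2 (adjusted p 0.0502 to 0.165), and in 10 of the 12 other alternatives; it was kept with 2000 bp added and with a replicate block (limma adjusted p = 0.0369 and 0.0304).

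Within 50 kb of Asxl1 there were 15 regions: 7 inside the gene (chr2:153345830-153404007, mm10, gene ID 228790), 3 in the upstream neighbour Kif3b and 5 in the downstream neighbour Nol4l. Exon and intron positions were not used here. The start region, chr2:153345409-153346618, and a region 5061 bp into the gene, chr2:153350593-153351189, were in all 12 lists, at median percentiles of 89.1 and 57.9. The other 5 inner regions lay 45855 to 56104 bp from the start, in the last part of the gene, and came and went. They were in 3 of 6 T618I and 1 of 6 Empty libraries at chr2:153391567-153391804, 5 and 1 at chr2:153392868-153393766, and 5 and 2 at chr2:153396741-153397998. At chr2:153399259-153399610 and at chr2:153401805-153402063 they were in 4 T618I and 2 Empty libraries. Each count was higher with T618I, but in the exact permutation test of presence, two-sided and stratified by guide, none passed (p from 0.095 to 0.56, adjusted p = 1 over all 37113 regions found in at least 2 libraries). Where present they were weak, with median percentiles of 12.1 to 30.1.

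**Figure D2:**
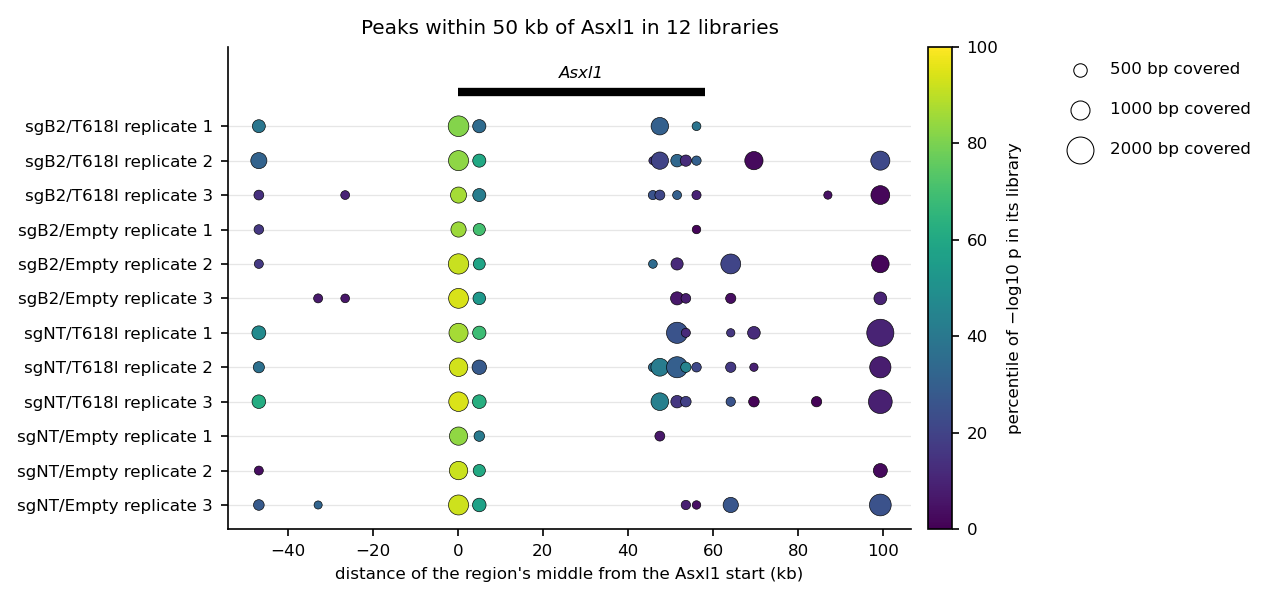
Peaks within 50 kb of Asxl1, by distance of the region's middle from the gene's start (kb) and library; circle area gives the covered length and colour the percentile of the deposited −log10 p. The start region is present and strong in every library, while the circles between 40 and 60 kb are more numerous in the T618I libraries.

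Dividing the window shows where the Asxl1 length differed; these divisions were chosen after their values were seen and were not tested. The start and the first inner region together covered a median of 1.34 kb in T618I libraries (1.24 to 1.74) and 1.59 kb in Empty libraries (1.31 to 1.86). The 5 other inner regions covered 1.11, 1.59 and 1.07 kb in sgB2/T618I and 0.298, 0.715 and 0.782 kb in sgB2/Empty libraries. They covered 1.22, 2.55 and 1.39 kb in sgNT/T618I libraries, against 0.414, 0 and 0.368 kb in sgNT/Empty libraries. Every T618I library was above every Empty library in this stretch, with means of 1.49 ± 0.55 and 0.429 ± 0.287 kb (SD, n = 6 each). Because the stretch was chosen with these values known, this separation is a description only. The share of like stretches elsewhere without overlap was not computed. The Nol4l regions covered 1.44 ± 0.79 kb with T618I and 0.864 ± 0.905 kb with Empty, and the Kif3b regions 0.464 ± 0.091 and 0.289 ± 0.170 kb. Of the whole difference of 1.61 kb between the means, 1.06 kb lay in this stretch of weak peaks, 0.58 kb in Nol4l, 0.17 kb in Kif3b and -0.20 kb at the start. The change was 0.43 with 1 kb windows, 0.31 with 10 kb windows and 0.08 when only peaks with a −log10 q of at least 5 were kept (limma adjusted p = 0.115, 0.283 and 0.694). Without the 2 shortest lists, both of Empty libraries, it was 0.39 (limma adjusted p = 0.142); the part of list length in the result was not tested further.

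**Figure D3:**
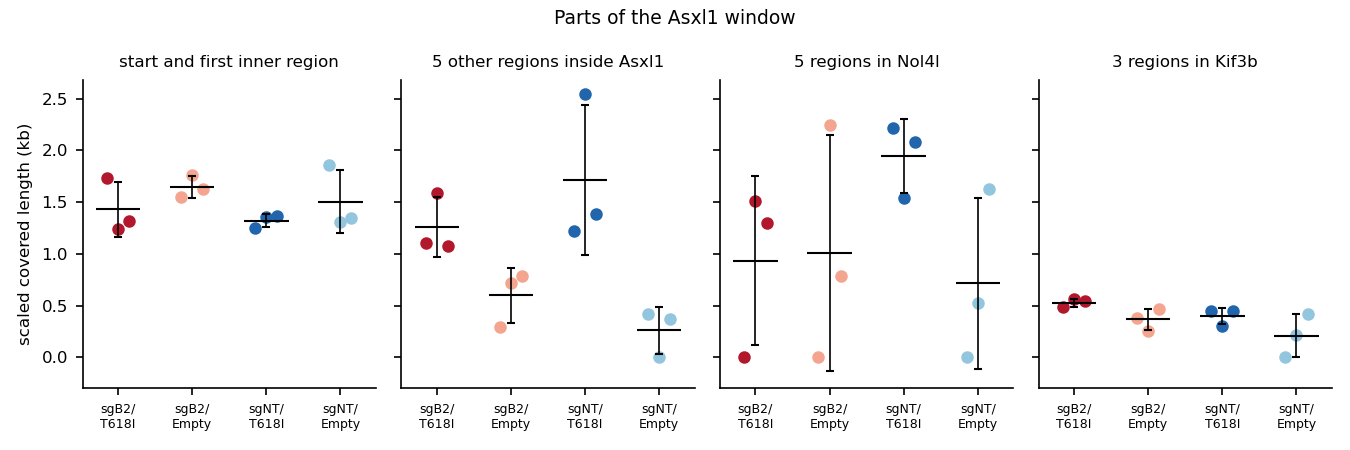
Scaled covered length (kb) in 4 parts of the Asxl1 window, by group; points are libraries, lines are means and bars are SD (n = 3). In the 5 inner regions away from the start the T618I libraries lie between 1.07 and 2.55 kb and the Empty libraries between 0 and 0.782 kb, and in the other parts they overlap. The parts were chosen after their values were seen.

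The guide against Asxl1 did not change the covered length of its own target past the threshold. Libraries with sgB2 ran from 2.23 to 4.98 kb with a median of 3.95 kb, and those with sgNT from 2.06 to 5.74 kb with a median of 4.44 kb. The change was -0.00 ± 0.16 (SE) on the log2 scale, with a 95% interval of -0.33 to 0.33 (limma adjusted p = 0.998). This mean joined opposite signs, 0.35 ± 0.22 in Empty cells and -0.35 ± 0.22 in T618I cells (limma adjusted p = 0.618 and 0.685). The 3 and 3 values of Asxl1 overlapped in Empty cells. In T618I cells they did not, nor did those of 17.9% of all genes. None of the 9 genes passed for sgB2, where 2.83% of all genes did, and 2 of the 9, Bap1 and Foxk1, had an unadjusted p below 0.05, as did 15.7% of all genes. The 6 sgB2 and 6 sgNT values overlapped for all 9 genes, where 1.4% of all genes did not overlap. The start region of Asxl1 was in all 6 sgB2 and all 6 sgNT lists. Its width, centred within each library, differed by 0.07 ± 0.14 on the log2 scale (limma adjusted p = 0.870).

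The genes whose windows followed Asxl1 most closely over the 12 libraries, on other chromosomes, were P4ha2, P3h4 and Neurl1a. With each gene centred on its own mean, their mean absolute differences from Asxl1 were 0.15, 0.16 and 0.18 on the log2 scale, against a median of 0.43 over the 14046 genes compared. P4ha2, which encodes a collagen prolyl hydroxylase subunit, covered 2.14 ± 0.65 kb in sgB2/T618I, 1.30 ± 0.40 kb in sgB2/Empty, 2.31 ± 0.25 kb in sgNT/T618I and 1.06 ± 0.49 kb in sgNT/Empty libraries (SD, n = 3 each). These genes were picked for likeness, so their levels are a description.

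Asxl2, the paralogue of Asxl1, had a log2 change of 0.22 ± 0.15 with T618I (limma adjusted p = 0.375). Its window covered 2.46, 2.01 and 1.14 kb in sgB2/T618I and 1.84, 1.03 and 1.65 kb in sgB2/Empty libraries. It covered 1.64, 2.32 and 1.82 kb in sgNT/T618I and 1.62, 1.63 and 1.44 kb in sgNT/Empty libraries. The groups overlapped under sgB2 and did not under sgNT, where the closest values were 1.64 and 1.63 kb and 20.7% of all genes had no overlap. Its 9 regions included an intergenic one 13443 bp beyond the gene, chr12:3524254-3524605, found in 2 of 3 sgB2/T618I and 0 of 3 sgB2/Empty libraries, and in 3 of 3 sgNT/T618I and 0 of 3 sgNT/Empty libraries. The exact stratified permutation test over 6 and 6 libraries gave p = 0.02, and 0.764 after adjustment over all regions. Its peaks stood at percentiles of 12.2 to 53.0, and of 5 libraries more with T618I than with Empty, 3 were left with lists of equal length and 2 with the stricter −log10 q.

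The window of Bap1, the catalytic subunit, had its lowest mean in the sgB2/Empty group. Of the 12 regions in this window 2 lay inside Bap1, and the differences below were not divided among the regions. Its window covered 1.94, 2.66 and 1.52 kb in sgB2/T618I and 1.89, 2.60 and 1.63 kb in sgNT/T618I libraries, which overlapped throughout. It covered 1.74, 1.37 and 1.78 kb in sgB2/Empty libraries, against 3.40, 2.74 and 2.27 kb in sgNT/Empty libraries, with no overlap. Bap1 was the only one of the 9 genes whose 3 and 3 values did not overlap in that comparison, where 13.6% of all genes did not. The change with sgB2 was -0.62 ± 0.19 (SE) on the log2 scale in Empty cells (limma adjusted p = 0.167) and -0.01 ± 0.19 in T618I cells (limma adjusted p = 0.995). None of the 9 genes passed with sgB2 in Empty cells, where 0.353% of all genes did, and 1 of the 9 had an unadjusted p below 0.05, as did 11.8% of all genes. None passed with sgB2 in T618I cells either, where 0.36% of all genes did, and 0 of the 9 had an unadjusted p below 0.05, against 10.1% of all genes. The 3 and 3 values in T618I cells did not overlap for Asxl1, Foxk2 and Mbd6, nor for 17.9% of all genes. The interaction for Bap1, 0.62 ± 0.26, had an unadjusted p of 0.0326 and an adjusted p of 0.999 in limma. Over both vectors the change was -0.32 ± 0.13 (adjusted p = 0.247), and with T618I over both guides -0.07 ± 0.13 (adjusted p = 0.761), both in limma.

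A region in the Bap1 window but inside the neighbour Sema3g, chr14:31228038-31229138, separated the guides completely. It was in 0 of 6 sgB2 libraries and in 6 of 6 sgNT libraries. The exact stratified permutation test gave p = 0.005, which is the smallest that its 400 arrangements allow, and adjusted p = 1; 0.256% of all regions reached that smallest p. Its peaks were weak, at percentiles of 4.18 to 22.6, and 252 to 955 bp were covered. With lists of equal length the difference was 1 library, and at the stricter −log10 q there was no peak left to compare. The start of Bap1 itself was in every list.

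Foxk1 and Foxk2, the forkhead partners, had no change past the threshold in limma. Foxk1 covered 4.10, 3.97 and 3.85 kb in sgB2/T618I and 4.82, 3.92 and 4.15 kb in sgB2/Empty libraries. It covered 4.93, 5.37 and 4.06 kb in sgNT/T618I and 6.43, 4.76 and 4.67 kb in sgNT/Empty libraries. Libraries with sgB2 had a median of 4.04 kb and those with sgNT 4.84 kb, and the 2 ranges overlapped. The change with sgB2 was -0.25 ± 0.09 (SE) on the log2 scale (limma adjusted p = 0.198), and with T618I -0.11 ± 0.09 (limma adjusted p = 0.499). Adjusted for each list's number of peaks, the sgB2 change was -0.38 and passed (limma adjusted p = 0.0240). In that setting 1148 of 15295 genes passed, 949 of them downward, and the median of all genes was -0.10. No other alternative gave a call for an uncalled T618I or sgB2 change of the 9 genes taken over both levels of the other factor.

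The region chr5:142412903-142413274, inside Foxk1, was in 0 of 6 sgB2 libraries and in 5 of 6 sgNT libraries, absent from sgNT/Empty replicate 2 (exact stratified permutation p = 0.02, adjusted p = 1). Its percentiles were 8.97 to 24.8. With lists of equal length the difference was 1 library. The Foxk1 start region, in all 12 lists, had a log2 width difference of -0.44 ± 0.12 between sgB2 and sgNT (limma adjusted p = 0.201). For this fit, widths were centred within each library. Before centring, the region spanned 602, 953 and 746 bp in sgB2/T618I and 462, 565 and 667 bp in sgB2/Empty libraries. It spanned 889, 1145 and 812 bp in sgNT/T618I and 938, 1064 and 966 bp in sgNT/Empty libraries. Over the 28 regions of the 9 windows found in all lists, 0 passed in limma for T618I and 0 for sgB2, against 1.77% and 0.314% of all such regions, and 2 had an unadjusted p below 0.05 in each comparison, beside 17.3% of all such regions for T618I and 10.5% for sgB2.

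Foxk2 covered 2.66, 2.46 and 2.97 kb in sgB2/T618I, against 4.41, 3.36 and 3.09 kb in sgB2/Empty libraries, without overlap. It was the only one of the 9 genes without overlap for T618I in sgB2 cells, where 19.7% of all genes had none. It covered 2.99, 3.63 and 3.31 kb in sgNT/T618I and 3.71, 3.21 and 3.48 kb in sgNT/Empty libraries, with overlap. The T618I change over both guides was -0.21 ± 0.09 (SE) on the log2 scale (limma adjusted p = 0.205), and the sgB2 change -0.10 ± 0.09 (limma adjusted p = 0.683).

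Hcfc1, the scaffold, and Ogt, its modifying enzyme, are both on chromosome X, the chromosome with the smaller share of covered length under sgB2. Neither passed the test for sgB2 or for T618I. Hcfc1 covered a median of 4.78 kb with sgB2 (4.20 to 4.84) and 4.55 kb with sgNT (3.97 to 5.93), a log2 change of -0.01 ± 0.09 with a 95% interval of -0.19 to 0.18. Ogt covered a median of 0.972 kb with sgB2 (0.643 to 1.52) and 0.957 kb with sgNT (0.861 to 1.21), a log2 change of -0.01 ± 0.13 with an interval of -0.29 to 0.28. Both limma adjusted p were 0.989. With T618I the changes were -0.11 ± 0.09 for Hcfc1 and 0.08 ± 0.13 for Ogt (limma adjusted p = 0.486 and 0.753).

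Inside Hcfc1, the region chrX:73946677-73946981 was in 3 of 3 sgB2/T618I libraries and in 0 of the 9 others. Its percentiles were 38.2, 31.6 and 21.0, and 305, 291 and 208 bp were covered. The exact stratified permutation test gave p = 0.1 for T618I and p = 0.1 for sgB2, with an adjusted p of 1 for each. With lists of equal length it was in 1 library more, and none of its peaks passed the stricter −log10 q.

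Mbd5, whose span is the longest of the 9, covered 1.73, 1.59 and 2.10 kb in sgB2/T618I and 2.06, 2.53 and 2.06 kb in sgB2/Empty libraries, which overlapped. It covered 1.44, 1.68 and 1.52 kb in sgNT/T618I, against 2.00, 1.91 and 2.25 kb in sgNT/Empty libraries, without overlap. In that comparison 20.7% of all genes had no overlap. The T618I change of -0.28 ± 0.10 (SE) on the log2 scale had an unadjusted p of 0.0110 and an adjusted p of 0.102 in limma, and the sgB2 change was 0.13 ± 0.10 (adjusted p = 0.598). A region inside Mbd5 that was in all lists, chr2:49275981-49276764, had a log2 width difference of -0.35 ± 0.10 between T618I and Empty, with widths centred within each library (limma adjusted p = 0.125). Mbd6 had the widest coverage of the 9, at the 95.7th percentile of all genes tested. Its window covered a median of 5.85 kb with T618I (5.46 to 6.97) and 5.78 kb with Empty (4.34 to 7.36), and changed by 0.05 ± 0.10 (limma adjusted p = 0.792). With sgB2 its change was 0.01 ± 0.10 (limma adjusted p = 0.982).

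**Figure D4:**
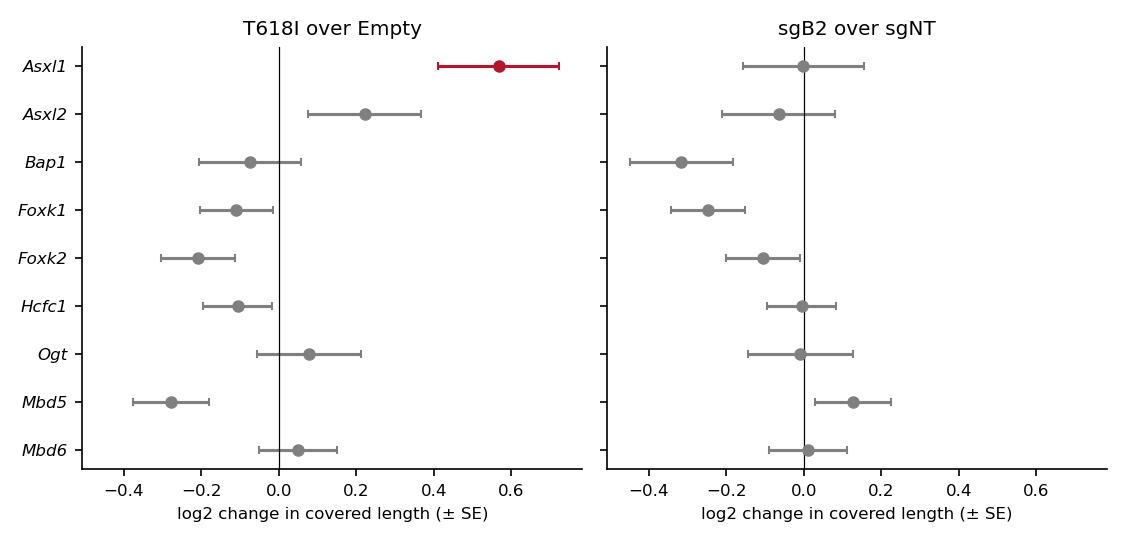
Log2 change in scaled covered length with its SE for T618I over Empty and for sgB2 over sgNT, for each of the 9 genes; red marks the change past an adjusted p of 0.05. Asxl1 with T618I, at 0.57, is the only one past it, and the others lie between -0.32 and 0.22.

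With both mutations against neither, sgB2/T618I against sgNT/Empty, 0 of the 9 genes and 3.75% of all genes passed in limma, and 3 of the 9 had an unadjusted p below 0.05, as did 17.1% of all genes. Summed over the 9 windows, the covered length was 28.5 ± 0.1 kb in sgB2/T618I, 28.1 ± 0.7 kb in sgB2/Empty, 30.0 ± 1.9 kb in sgNT/T618I and 30.0 ± 3.1 kb in sgNT/Empty libraries (SD, n = 3 each).

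Counting regions gained or lost, that is with a peak in every library of one side and in none of the other, gave 8 regions in all, 4 of them around Asxl1. The 8 are distinct regions gained or lost in at least 1 comparison, and the share of all regions for that total was not computed. Asxl1 also had 13 of the 66 regions that could be counted. Of the 66 regions of the 9 windows found in at least 2 libraries, 0 were gained and 0 lost with T618I under both guides (0.684% and 0.0862% of all regions), and 0 gained and 1 lost with sgB2 under both vectors (0.0754% and 0.181%). T618I in sgNT cells gained 3 and lost 0 (3.24% and 0.55% of all regions), and T618I in sgB2 cells gained 2 and lost 0 (3.24% and 0.911%). With sgB2, 0 were gained and 1 lost in Empty cells (0.701% and 0.94%), and 1 gained and 3 lost in T618I cells (0.878% and 1.84%). With both mutations against neither, 1 was gained and 1 lost (2.92% and 1.41%). In Asxl1 these were the inner regions 7 and 8, counted from the upstream end of the window, and regions 11 and 12 in Nol4l. Region 12, chr2:153414772-153416079, was in 4 of 6 T618I and 0 of 6 Empty libraries (exact stratified permutation p = 0.05, adjusted p = 1). By the exact test over all 37113 regions none passed for either factor, and 0.771% and 0.256% reached the smallest p for T618I and for sgB2.

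**Figure D5:**
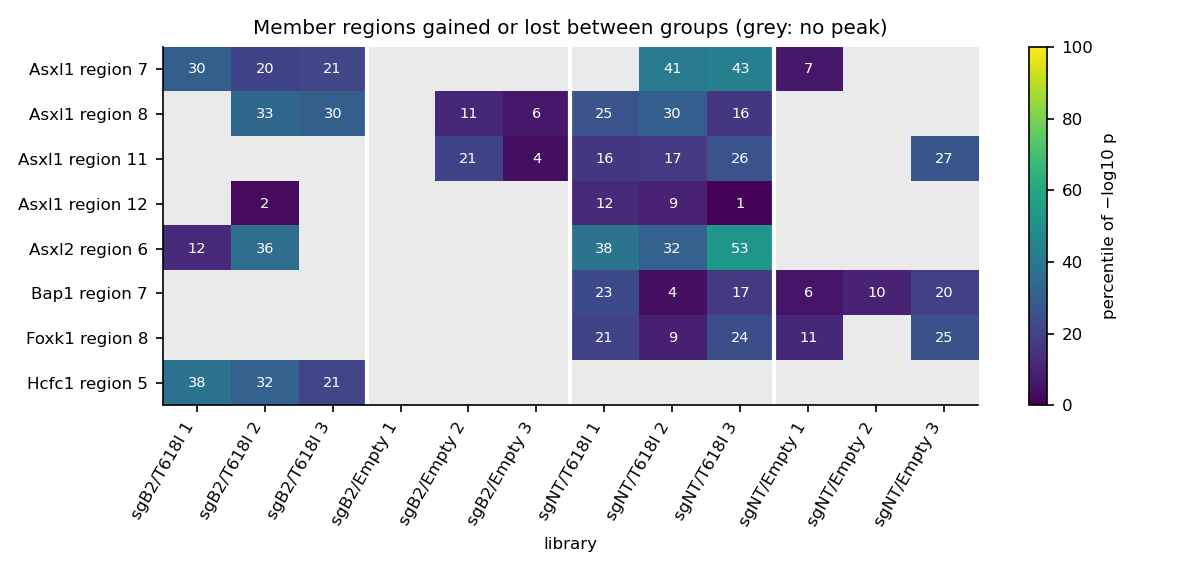
Percentile of the deposited −log10 p in each library for the regions of the 9 windows gained or lost between groups or differing under both backgrounds; grey means no peak. The Bap1 and Foxk1 regions are grey in all 6 sgB2 libraries, and no percentile is above 53.0.

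Among genes that work with or against the complex, 1 of 5 partners and regulators of BAP1, 1 of 22 subunits of Polycomb repressive complex 1 and 0 of 5 other H2A deubiquitinases passed for T618I, beside 6.47% of all genes. Hcfc2, the paralogue of Hcfc1, covered 4.34 ± 0.47 kb in sgB2/T618I and 3.09 ± 0.24 kb in sgB2/Empty, and 3.92 ± 0.17 kb in sgNT/T618I and 3.01 ± 0.33 kb in sgNT/Empty libraries (SD, n = 3 each). It rose with T618I by 0.38 ± 0.08 (SE) on the log2 scale (limma adjusted p = 0.0131), and with 1 kb and 10 kb windows the change was 0.23 and 0.25 (adjusted p = 0.252 and 0.199). Yaf2, a subunit of variant complexes of the ubiquitin writer, covered 2.92 ± 0.18 kb in sgB2/T618I and 3.40 ± 0.45 kb in sgB2/Empty, and 2.84 ± 0.24 kb in sgNT/T618I and 3.96 ± 0.18 kb in sgNT/Empty libraries (SD, n = 3 each). Its change was -0.30 ± 0.09 (limma adjusted p = 0.0441), and with the lists unscaled it was -0.02 (adjusted p = 0.917). The Yaf2 call was lost without any library except sgB2/Empty replicate 3 (adjusted p 0.0510 to 0.114), and in 7 of 13 other alternatives. The list medians were 0.06, -0.12 and -0.06, beside -0.05 over all genes tested. For sgB2 and for the interaction 0 genes of the 3 lists passed in limma; for sgB2 1 of 5, 1 of 22 and 2 of 5 had an unadjusted p below 0.05, and for the interaction 0 in each list, beside 15.7% and 4.91% of all genes.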

How the data were processed

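The files were 12 lists of broad peaks from MACS2 2.2.7.1, 1 per library. Per the submitters' processing notes, BWA 0.7.17, SAMtools 1.9, bedtools 2.30 and deepTools 3.5 were used on build mm10. Reads, read counts and coverage tracks were not used here, so depth is unknown and its number of reads gives no interval. The deposited −log10 p was used by rank within a list, and the deposited −log10 q for a stricter filter. The deposited fold over background, a ratio, and the deposited score, which is 10 times the −log10 q cut to a whole number in 99.96 to 99.99% of a list's peaks, were used for an alternative ranking and for checking only. Peak positions are as deposited by the authors, given here from 1.

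Gene spans came from a table of GRCm38.p6, whose coordinates are those of mm10. Covered length within 50 kb was scaled to equal list totals, and log2(bp + 500) was fitted with limma 3.58.1 (R 4.3.3, trend, all 12 libraries, 4 group means) for every gene averaging at least 500 bp; p-values were adjusted over all of them. Presence of regions was tested by an exact two-sided permutation test within the other factor, 400 arrangements, smallest p 0.005; 3 against 3 libraries cannot go below 0.1. Widths of regions found in all 12 lists were fitted with limma on the log2 scale, centred within each library. Python 3.11.15, numpy 2.4.6, pandas 2.3.3, scipy 1.17.1 and matplotlib 3.10.9 did the rest, and the covered-length fit was tested on simulated data. Named were all 9 genes, list genes past the threshold, every region inside Asxl1, each gene's start region, regions gained, lost or differing by at least 2 libraries of 3 in both backgrounds, and the 3 genes most like Asxl1. Alternatives were other windows, added lengths, filters, scalings, stricter or equal-length lists, a replicate block and left-out libraries or chromosomes; leaving out the 2 shortest lists, leaving out chromosomes 1 and X, and the widths of regions were added after seeing the data. The members and lists were chosen with earlier results of these data known. A withheld item among the marker genes is not reported here.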

Additional observations from a re-analysis of the deposited data

How the results depend on the processing

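Peak lists carry no depth, so weak regions cannot be separated from list length, and most counts of called genes moved with how lists were made comparable. The Asxl1 increase with T618I was positive in 25 of 25 settings but kept its call in 3 of 12 with a library left out (0.43 to 0.68) and 4 of 12 others. It was 0.40 with equal-length lists, 0.57 with no filter on low values (adjusted p = 0.0551), 0.84 unscaled, 0.49 after adjustment for the number of peaks, 0.082 with stricter peaks, 0.43 and 0.31 with 1 and 10 kb windows and 0.39 without the 2 shortest lists. The Asxl1 call in sgNT cells was lost in 10 of 12 others. Of 418 alternatives for the 17 uncalled T618I and sgB2 changes of the 9 genes, each over both levels of the other factor, 417 gave no call; their changes within 1 guide or vector and their interactions were not recomputed, except Asxl1 with T618I in sgNT cells. The cause of these differences was not tested.

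Genes past the threshold numbered 988 for T618I, beside 853 unscaled, 976 with that adjustment and 1231 with equal lengths, and against 530 with stricter peaks, 372 with 10 kb and 232 with 1 kb windows (582 to 1118 with a library left out). For sgB2 they numbered 432, against 22 unscaled, 1148 with that adjustment, 118, 122 and 93 with stricter peaks, 10 kb and 1 kb, and 131 without chromosomes 1 and X (225 to 585). The interaction had 1, against 4 with equal lengths, 3 with 1 kb, 3 without the 2 shortest lists, 2 with 100 bp added, and 0 with 2000 bp added, stricter peaks or without chromosomes 1 and X (0 to 3). T618I in sgNT cells had 228, against 510 with equal lengths, 59 unscaled, 146 stricter, 56 with 10 kb and 21 with 1 kb (63 to 275), and in sgB2 cells 245, against 36, 120, 102 and 58 for the last 4 of these (91 to 381). In Empty cells sgB2 had 54, against 32 with 100 bp added, 1 unscaled, 6 stricter, 21 with 10 kb, 101 without the shortest lists and 19 without chromosomes 1 and X (15 to 133). In T618I cells it had 55, against 216 with equal lengths, 5 unscaled, 152 with the adjustment, 26 with 10 kb, 28 with 1 kb, 133 without the shortest lists and 19 without chromosomes 1 and X (15 to 106). Both mutations against neither had 573, against 24 unscaled, 257 stricter, 210 with 10 kb and 133 with 1 kb (243 to 647). Regions gained or lost in the 9 windows numbered 8, against 4 when 50% of a region had to be covered, 3 with equal lengths and 1 with stricter peaks (8 to 12). Unscaled, 837 genes were called up and 16 down for T618I, and with the adjustment 834 and 142, beside 619 and 369; the median of all genes was then 0.20 and 0.06. For sgB2 these were 7 and 15 unscaled and 199 and 949 with the adjustment, beside 233 and 199, with medians of -0.14 and -0.10.

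Changes that were not called changed sign as follows. Unscaled, the T618I change was 0.18 for Bap1, 0.18 for Foxk1, 0.071 for Foxk2 and 0.18 for Hcfc1, and the sgB2 change -0.016 for Mbd5 and -0.15 for Mbd6. With the adjustment the T618I change was 0.033 for Bap1, 0.076 for Foxk1 and 0.062 for Hcfc1, and the sgB2 change -0.10 for Mbd6. With 10 kb and 1 kb windows the sgB2 change was 0.094 and 0.078 for Asxl1, 0.15 for Hcfc1 and 0.25 for Ogt, and the T618I change -0.040 for Asxl2 and -0.0071 for Ogt. Equal lengths gave sgB2 changes of 0.014 for Hcfc1 and -0.014 for Mbd6 and a T618I change of -0.085 for Ogt. The sgB2 change was 0.15 for Ogt with stricter peaks, 0.00013 with 2000 bp added, and for Asxl1 0.0042 with 100 bp added and 0.030 without chromosomes 1 and X. Without the 2 shortest lists it was 0.091 for Asxl1 and 0.041 for Hcfc1, and the T618I change of Bap1 0.0087. With a library left out the T618I change ran from -0.16 to 0.0028 for Bap1, -0.016 to 0.13 for Ogt and -0.028 to 0.12 for Mbd6, and the sgB2 change from -0.12 to 0.13 for Asxl1, -0.16 to 0.058 for Asxl2, -0.072 to 0.050 for Hcfc1, -0.10 to 0.068 for Ogt and -0.039 to 0.089 for Mbd6.

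Replicate numbers gave no clear pairing of the libraries: of 18 same-numbered pairs 4 correlated above 0.1 (-0.16 to 0.22), and 6 of 12 libraries were closest to their own number. Some matches arise by chance, and their expected number was not computed, so this check cannot decide whether the libraries are paired. A replicate block gave 1034 genes for T618I and 457 for sgB2, and Asxl1 kept its call at 0.57 (adjusted p = 0.0233).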
